A study of Mus musculus with 26 samples.

Results

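Lungs of mice lacking both Fgfr3 and Fgfr4 were compared with lungs of double heterozygotes in the set of arrays titled 8 day, which holds 6 of the 26 Affymetrix expression arrays of the study for this comparison. The 3 arrays of the Compound Knock-out (DKO, both copies of both receptor genes mutant) and the 3 of the Compound Heterozygous genotype (DHet, 1 mutant copy of each) were chosen by their titles, and every probe set that is not a control was read. The 3 wild-type arrays (WT, age-matched C57BL6) with the same titled age served as reference. The title and source name of these arrays give an age of 8 days, while their characteristics and description give 1 day, so the set is called here by its title and no age is read from it. Every array carries the pooled RNA of 3 animals, and replicate spread here means differences among such pools. The labels call the arrays biological replicates, and nothing more is said of how the pools were drawn. The p-values therefore measure only differences among arrays, which may in part be technical. For the gene tests the spread was taken from all 26 arrays of the study, so it includes arrays of the other sets. No promoter or Cre driver is named in the labels. The strain background of the mutants and the part of each receptor gene that was changed are not stated in the labels.

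Fibroblast growth factors (FGFs) signal through receptor tyrosine kinases held on the cell surface with heparan sulphate co-receptors, and the Sprouty, Spred and Dusp proteins damp the signal. In the postnatal mouse lung the gas exchange surface is made by septation: ridges carrying elastic fibres grow into the saccules and divide them into alveoli. Fgfr3 and Fgfr4 are known to act together in this step, and elastin, its crosslinking enzymes and the insulin-like growth factors have been studied beside them.

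Values are the log2 levels deposited by the authors, and a difference is DKO minus DHet on the log2 scale, so that 1 means a doubling. Of 45037 probe sets, 27022 passed a filter on the mean level over all 26 arrays, and they cover 13079 genes. A gene was read from its passing probe set with the highest mean. A gene or probe set was called when its adjusted p (limma, Benjamini-Hochberg over the 27022) was under 0.05. The 6 arrays correlated at 0.986 or more with each other, and the lung markers stood at the top of the scale, with Sftpc (surfactant protein C) between 14.42 and 14.54 and Scgb1a1 (the club cell secretoglobin) between 13.80 and 14.09. The ratio of 3′ to 5′ signal of the control probe sets, a sign of RNA integrity, was 0.50 ± 0.099 (SD, n = 3) log2 in DKO and 0.345 ± 0.076 in DHet for actin, an exact two-sided permutation p of 0.2. For Gapdh it was -0.204 ± 0.074 in DKO and -0.367 ± 0.026 in DHet, with an exact permutation p of 0.1, the smallest that 3 against 3 arrays allow. The part of RNA integrity in the results was not tested.

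The targeted genes were read first. The main Fgfr4 probe set (1418596_at) stood at 7.73, 7.78 and 7.63 in the DHet arrays, at 7.07, 7.26 and 6.70 in the DKO arrays and at 7.94, 7.83 and 8.11 in WT. The DKO arrays were the lowest of the 3 genotypes without overlap, and Fgfr4 fell by 0.70 ± 0.11 (SE) against DHet (limma adjusted p = 0.00212). The main Fgfr3 probe set (1421841_at) stood at 9.44 in each DHet array, at 8.97, 8.98 and 8.94 in DKO and at 9.81, 9.96 and 9.74 in WT. The groups again stood apart in the order WT, DHet, DKO, but the difference of -0.47 ± 0.13 between DKO and DHet had an adjusted p of 0.0773. The second Fgfr3 probe set (1425796_a_at) differed by -0.53 ± 0.15 (adjusted p = 0.094). The other 2 Fgfr4 probe sets above the filter differed by -0.24 (adjusted p = 0.402) and -0.04 (adjusted p = 0.939), and a further 2 lay below it. Signal therefore remained in DKO for both genes. Whether the probes lie in the changed part of the transcripts is not stated in the labels, so these levels are only a partial check of the labels.

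**Figure D1:**
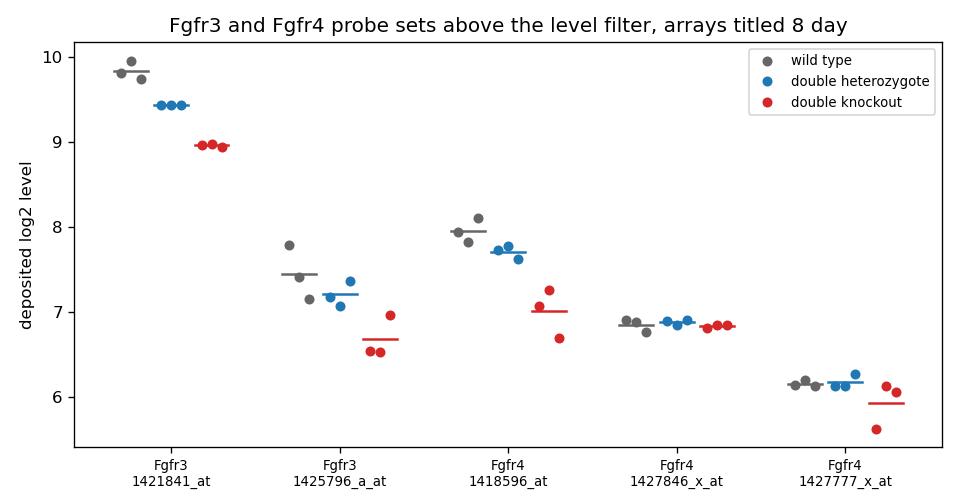
Deposited log2 level of the Fgfr3 and Fgfr4 probe sets above the level filter on each array titled 8 day; points are arrays, horizontal bars are group means, colours are genotypes. The DKO arrays lie below the DHet arrays for both Fgfr3 probe sets and for Fgfr4 1418596_at, while the 2 other Fgfr4 probe sets differ by -0.24 and -0.04.

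More genes rose than fell in DKO. Of the 27022 probe sets, 436 were called (1.61%), 332 of them higher in DKO (1.23%) and 104 lower (0.385%). Read by gene, 222 of 13079 rose (1.7%) and 52 fell (0.398%), and the median difference over all genes was 0.01. An unadjusted limma p under 0.05 was found for 1595 of the 13079 genes, and 7118 (54.4%) lay above 0. Called genes had a median size of 0.58, with 22 up by more than 2-fold and 8 down by more than 2-fold. The arrays of the 2 genotypes did not overlap for 2543 genes (19.4%). Replicate 1 of DKO had the smallest shift of the 3 DKO arrays in 192 of the 274 called genes (median shift 0.42 against 0.57 and 0.69 in replicates 2 and 3), although it never fell inside the DHet range. Without it the count of called probe sets was 575. The count fell to 223 and 145 without DKO replicates 2 and 3, and to 205, 246 and 231 without DHet replicates 1, 2 and 3. The spread used for the p-values is shared over all 9 groups of the study.

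The largest rise was that of Lrg1, followed by Zbtb16, Itih4, Inmt and Lcn2, and 6 of the 14 largest are genes of the acute phase or neutrophil lists. Lrg1, a leucine-rich glycoprotein of neutrophils and inflamed endothelium, stood at 5.08, 5.36 and 5.56 in DHet and at 6.20, 8.19 and 8.29 in DKO, a rise of 2.23 ± 0.34 or 4.68-fold (adjusted p = 0.00116). Itih4, a hyaluronan-binding plasma protein, stood at 5.73, 5.66 and 5.73 in DHet and at 6.56, 7.81 and 8.29 in DKO, a rise of 1.84 ± 0.24 (adjusted p = 0.000177). Both genes had 1 DKO array much closer to DHet than the other 2. Lcn2, which binds bacterial siderophores, went from 8.66, 8.61 and 8.71 to 9.53, 10.50 and 10.91 (1.65 ± 0.24, adjusted p = 0.000786). Hp, haptoglobin, the binder of free haemoglobin, stood at 10.32, 10.34 and 10.41 in DHet, at 11.44, 11.66 and 12.01 in DKO and at 10.42, 10.46 and 10.35 in WT. Its rise of 1.35 ± 0.10 or 2.55-fold had the smallest adjusted p of the comparison among the genes named by size (1.06e-07). S100a8, a calcium-binding protein of neutrophils, rose by 1.34 ± 0.32 (adjusted p = 0.0335), and Stfa2l1, a stefin, by 1.23 ± 0.31 (adjusted p = 0.0437).

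The other 8 of the 14 have varied functions. Ntrk2, the receptor of brain-derived neurotrophic factor, stood at 7.21, 7.19 and 7.17 in DHet, 8.38, 8.74 and 8.87 in DKO and 7.55, 7.52 and 7.56 in WT, a rise of 1.48 ± 0.16 (adjusted p = 3.53e-05). It lies within 20 Mb of Fgfr4 on the same chromosome. Spink5, a serine protease inhibitor of epithelia, went from 5.59, 5.54 and 5.69 to 6.66, 7.14 and 7.0 (1.32 ± 0.12, adjusted p = 3.43e-06), with WT at 5.81, 5.89 and 5.74. The DKO arrays of these 2 genes stood together and above both other genotypes. Zbtb16, the transcription factor PLZF, went from 6.46, 6.40 and 6.05 to 8.04, 8.74 and 8.70, a rise of 2.19 ± 0.56 that just passed (adjusted p = 0.0492). Fabp4, the fatty acid carrier of adipocytes, macrophages and some endothelium, rose by 1.58 ± 0.26 (adjusted p = 0.00257). Inmt, a methyltransferase, stood at 7.92, 7.62 and 7.98 in DHet and at 8.26, 10.22 and 10.19 in DKO (1.72 ± 0.34, adjusted p = 0.00958). Fmo2, the lung flavin monooxygenase, rose by 1.34 ± 0.28 (adjusted p = 0.0129), Ankrd37, a hypoxia-responsive gene, by 1.40 ± 0.27 (adjusted p = 0.00707), and Fst, follistatin, the activin antagonist, by 1.38 ± 0.30 (adjusted p = 0.0167).

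Among called genes without overlap, the falls were led by Wnt2, a ligand of the lung mesenchyme needed for lung growth. Wnt2 stood at 9.20, 9.21 and 9.10 in DHet, at 9.26, 9.35 and 9.21 in WT and at 7.80, 7.56 and 7.21 in DKO, a fall of 1.65 ± 0.20 or 3.14-fold (adjusted p = 0.000134). DHet and WT arrays lay within the same narrow range and every DKO array far below it. Ppp1r3c, a glycogen-targeting phosphatase subunit, stood at 10.09, 10.16 and 9.86 in DHet and at 8.77, 8.65 and 8.81 in DKO (-1.30 ± 0.22, adjusted p = 0.00322). A2m, the protease inhibitor alpha-2-macroglobulin, stood at 6.58, 6.69 and 6.47 in DHet and at 5.39, 5.30 and 5.47 in DKO (-1.19 ± 0.15, adjusted p = 0.000134). Lyve1, the hyaluronan receptor of lymphatic endothelium, stood at 10.45, 10.57 and 10.61 in DHet and at 9.61, 8.90 and 9.25 in DKO (-1.29 ± 0.24, adjusted p = 0.0059). These 4 genes showed no overlap between DKO and either other genotype. Frem1, a basement membrane protein, fell by 1.22 ± 0.22 (adjusted p = 0.00412), and Fscn1, the actin bundler fascin, by 1.08 ± 0.23 (adjusted p = 0.0128). Kcne2, a potassium channel subunit, fell by 1.04 ± 0.18 (adjusted p = 0.00402) and Ptpn5, a neuronal tyrosine phosphatase, by 1.02 ± 0.14 (adjusted p = 0.000286). The rest of the 14 largest falls were Igfbp2 (-0.93), Nr2f1 (-0.82), Slc38a5 (-0.82), Tpd52l1 (-0.80), Sox11 (-0.78) and Cdkn2c (-0.75), the last an inhibitor of the cell cycle kinases Cdk4 and Cdk6.

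**Figure D2:**
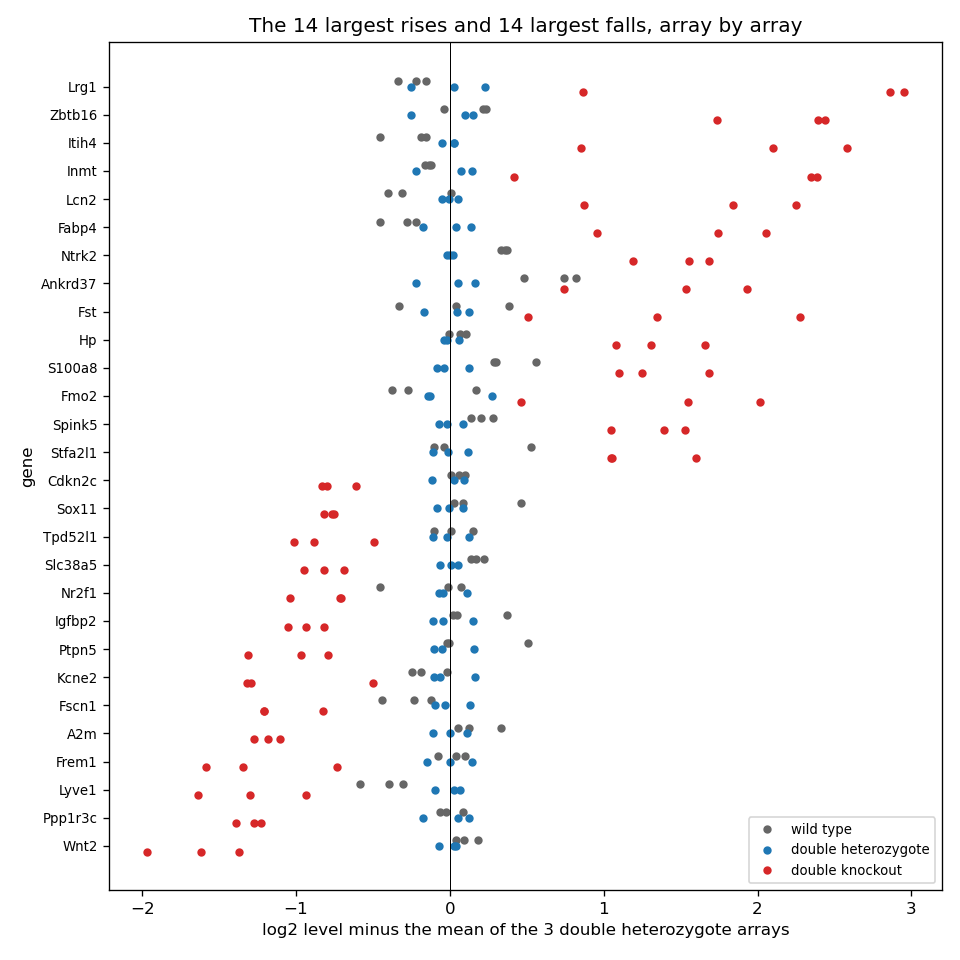
The 14 largest rises and 14 largest falls among genes that were called and whose DKO and DHet arrays did not overlap; each point is 1 array, plotted as its log2 level minus the mean of the 3 DHet arrays. DKO points lie apart from DHet points in each gene, by up to 2.23 on average for Lrg1 and -1.65 for Wnt2, and 1 DKO array often lies closer to DHet.

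Of these 28 genes, 18 passed when any 1 of the 6 arrays was left out. Of those 18, 11 also passed when the spread was estimated from the 6 arrays alone: Hp, Ntrk2, Spink5, Wnt2, Ppp1r3c, A2m, Lyve1, Ptpn5, Slc38a5, Sox11 and Cdkn2c. The other 7 did not, with adjusted p 0.11 for Lrg1, 0.0914 for Itih4, 0.0902 for Kcne2, 0.072 for Lcn2, 0.0637 for Tpd52l1, 0.0579 for Frem1 and 0.0518 for Fabp4. DKO replicate 3 mattered for 10 of the 28 and DKO replicate 2 for 9, while leaving out DKO replicate 1 lost 1 (Stfa2l1). Inmt and Ankrd37 passed without any 1 array except DKO replicates 2 and 3. Fscn1 failed without either of those or without DHet replicate 1, and Igfbp2 failed without DKO replicate 3. Zbtb16, Fst, S100a8 and Nr2f1 passed only without DKO replicate 1, Fmo2 without that array or DHet replicate 3, and Stfa2l1 under none of these omissions. With the spread of the 6 arrays, Zbtb16, Igfbp2, S100a8, Fscn1, Stfa2l1 and Nr2f1 passed (limma adjusted p between 0.0129 and 0.0331). Ankrd37, Fmo2, Fst and Inmt did not (adjusted p between 0.0784 and 0.183).

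Within the FGF system Fgfr4 and 2 other genes were called, beside 274 of 13079 over all genes. Over all genes 222 rose (1.7%) and 52 fell (0.398%), the shares to set beside this and each later list count. Of 6 ligand genes above the filter none was called and 1 had an unadjusted p under 0.05. Fgf7, a mesenchymal ligand that acts on epithelium, stood at 6.76, 6.65 and 6.81 in DHet and at 7.0, 7.28 and 7.22 in DKO (0.43 ± 0.11, adjusted p = 0.06). Of 17 receptors and co-receptors, 2 rose and Fgfr4 fell. Sdc1, a heparan sulphate carrier of epithelia, rose by 0.35 ± 0.07 (adjusted p = 0.0137), and Fgfbp1, which releases FGFs from the matrix and lies within 20 Mb of Fgfr3, by 0.64 ± 0.15 (adjusted p = 0.034). Without DKO replicate 2 or 3, or DHet replicate 1 or 3, neither of these 2 passed, and without DHet replicate 2 only Sdc1 did. The receptors Fgfr1 and Fgfr2 differed by -0.07 ± 0.09 and 0.16 ± 0.08 (adjusted p 0.9 and 0.504). None of 21 relay and feedback genes was called and 4 had an unadjusted p under 0.05, beside 1595 of 13079 over all genes. The median difference of the 21 was -0.06. The feedback inhibitors Dusp6 and Spry1 differed by 0.40 ± 0.13 (adjusted p = 0.165) and 0.27 ± 0.08 (adjusted p = 0.118), and the FGF target Etv4 by -0.21 ± 0.09 (adjusted p = 0.343).

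The elastic fibre genes held 2 rises among 20 above the filter. Mfap5, a microfibril glycoprotein, stood at 8.98, 8.99 and 8.74 in DHet and at 9.68, 9.92 and 9.57 in DKO (0.82 ± 0.19, adjusted p = 0.0253). Lox, the lysyl oxidase that crosslinks elastin and collagen, stood at 9.69, 9.82 and 9.57 in DHet and at 10.22, 10.34 and 10.55 in DKO (0.68 ± 0.16, adjusted p = 0.035). Both passed only when no array or DKO replicate 1 was left out. Eln, elastin itself, stood at 12.76, 12.85 and 12.70 in DHet, at 13.25, 13.19 and 13.25 in DKO and at 12.73, 12.98 and 12.91 in WT. The DKO arrays lay above both other genotypes, which overlapped each other, but the difference of 0.46 ± 0.13 had an adjusted p of 0.073. Mfap4, a microfibril-associated protein, differed the other way (-0.36 ± 0.11, adjusted p = 0.143), and the median of the 20 genes was 0.04. Among 42 collagens and other matrix genes, Thbs2 (thrombospondin 2, 0.63 ± 0.15, adjusted p = 0.0289) rose and Frem1 fell. Thbs2 passed with no single array left out. Among 22 proteases and inhibitors, the secretory leukocyte peptidase inhibitor Slpi rose by 0.79 ± 0.14 (adjusted p = 0.00445) and A2m fell.

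In the insulin-like growth factor system, 1 of 19 genes rose and 1 fell. Igf2, the fetal growth factor, stood at 8.58, 8.52 and 8.61 in DHet and at 8.95, 9.54 and 9.18 in DKO (0.65 ± 0.12, adjusted p = 0.00706). It failed the test without DKO replicate 2 (adjusted p = 0.0575). Igfbp2, a binding protein that is also a marker of mature type 1 cells, went the other way, from 9.20, 9.45 and 9.26 to 8.48, 8.37 and 8.25 (adjusted p = 0.00707, and 0.0557 without DKO replicate 3). Igf1 stood at 9.47, 9.82 and 9.50 in DHet and at 10.41, 10.05 and 10.17 in DKO, without overlap, a difference of 0.61 ± 0.17 that did not pass (adjusted p = 0.0785). The 2 ligands thus lay higher in DKO on all arrays and 1 of them was called.

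Among 33 genes of WNT signalling, Sfrp2, a secreted WNT modulator, rose by 1.02 ± 0.18 (adjusted p = 0.00412), the receptor Lgr6 rose by 0.56 ± 0.11 (adjusted p = 0.0106) and Wnt2 fell. Sfrp2 stood at 6.77, 6.41 and 6.26 in DHet and at 7.45, 7.67 and 7.40 in DKO. Lgr6 failed without DHet replicate 2. Of 14 pericyte markers, 3 rose: the potassium channel pair Abcc9 (0.63 ± 0.08, adjusted p = 0.00016) and Kcnj8 (0.65 ± 0.11, adjusted p = 0.00216), which form 1 channel, and the receptor Notch3 (0.37 ± 0.08, adjusted p = 0.0124). Abcc9 stood at 7.30, 7.41 and 7.38 in DHet and at 7.88, 8.03 and 8.07 in DKO, and Kcnj8 at 7.17, 7.09 and 7.26 against 7.84, 7.82 and 7.82. Notch3 failed without DKO replicate 2 or DHet replicate 1 or 3. The 25 lipofibroblast and matrix fibroblast genes held 4 rises (Zbtb16, Inmt, Lpl and Cebpa) and 3 falls (Wnt2, Fgfr4 and Ces1d). Fgfr4 is a targeted gene, so its fall is not a separate result on these fibroblasts. The 4 rises were 0 without DKO replicate 2 or 3 and 1 without any 1 of the DHet replicates, and the falls were 2 without DKO replicate 3 or DHet replicate 1 or 3. Of 16 retinoid pathway genes above the filter 2 rose and none fell, with a median of 0.20. Rarb, a retinoic acid receptor, rose by 0.49 ± 0.10 (adjusted p = 0.0115) and Tgm2, a transglutaminase, by 0.47 ± 0.10 (adjusted p = 0.018). Rarb failed without DKO replicate 2 or 3 or DHet replicate 3, and Tgm2 passed only without DKO replicate 1.

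**Figure D3:**
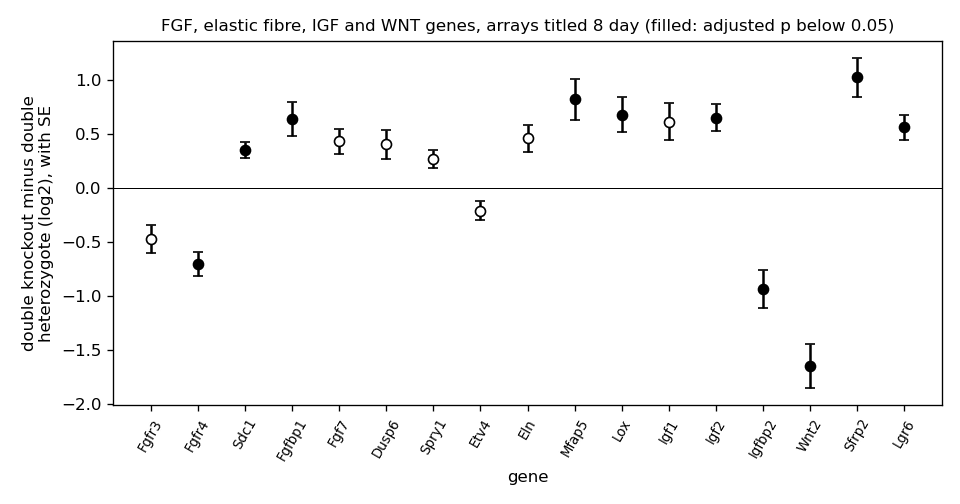
Difference DKO minus DHet (log2) of named FGF, elastic fibre, IGF and WNT genes, with the standard error of the limma fit; filled points passed at an adjusted p under 0.05. Fgfr4, Igfbp2 and Wnt2 fell, Sdc1, Fgfbp1, Mfap5, Lox, Igf2, Sfrp2 and Lgr6 rose, and Eln (0.46) and Igf1 (0.61) did not pass.

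In bulk lung RNA, more cells of a type and more RNA per cell cannot be told apart, which holds for each marker list below. Beside each list count stands the share over all 13079 genes, of which 1.7% rose and 0.398% fell. The lists share some members. Most list counts were lower with the spread of the 6 arrays alone: 5 ciliated, 1 club, 0 type 2, 2 mesothelial, 0 macrophage, 0 erythroid, 1 acute phase, 2 glucocorticoid-responsive and 1 xenobiotic gene higher, and 1 dendritic cell gene lower, while 4 neutrophil and 7 heart muscle genes were higher. Of 38 ciliated cell genes above the filter 12 rose, none fell and 35 lay above 0, with a median of 0.27 against 0.01 over all genes. The list mean was 5.88, 5.91 and 5.94 in DHet, 6.17, 6.20 and 6.29 in DKO and 5.87, 5.83 and 5.80 in WT, so the DKO arrays stood above both other genotypes. Myb, a transcription factor of early multiciliated cells, stood at 6.45, 6.62 and 6.68 in DHet and at 7.26, 7.34 and 7.64 in DKO (0.83 ± 0.11, adjusted p = 0.000179). Dynlrb2, a dynein light chain, went from 8.06, 8.02 and 8.12 to 8.58, 8.76 and 8.78 (0.64 ± 0.09, adjusted p = 0.000312). Ccdc153 rose by 0.68 ± 0.11 (adjusted p = 0.00197), Capsl by 0.59 ± 0.11 (adjusted p = 0.0044), Rsph1, a radial spoke protein, by 0.57 ± 0.10 (adjusted p = 0.00408) and Ccdc39, an axonemal ruler protein, by 0.60 ± 0.12 (adjusted p = 0.00958). Foxj1, the master regulator of motile cilia, stood low at 5.50 to 5.59 in DHet and 5.64 to 5.88 in DKO, a difference of 0.19 ± 0.09 (adjusted p = 0.475). The count of 12 was 10 and 8 without DKO replicates 1 and 2, 5 without DKO replicate 3, and 7, 6 and 9 without DHet replicates 1, 2 and 3.

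As 12 ciliated genes rose, their promoters were searched for GTTNCC, the half-site of the X-box bound by RFX factors, on both strands of the 300 bases around each start site. The motifs were chosen with the called genes known. Of the 11 called ciliated genes with a RefSeq promoter entry (GRCm38.p6), 10 held the motif (Myb did not), as did 30 of the 33 ciliated genes above the filter with an entry and 48.8% of all 27025 genes with an entry (45.3% of 32851 promoters). TGTTTAC, the forkhead core, was in 1 of the 11, in 2 of the 33 and in 4.05% of all genes. A further search, for the STAT site TTCNNNGAA in the acute phase list, found it in 1 of 4 called genes with an entry (Itih4, not Lcn2, Lrg1 or Mt1), in 5 of 14 above the filter and in 9.55% of all genes. The letters are a description of the sequence and not a measured binding site. The 3 rising genes with a match and the smallest adjusted p are shown, with the GTTNCC matches of either strand in capitals, as Dynlrb2 at chr8:116504765-116505064 (plus strand), Ccdc153 at chr9:44240427-44240726 (plus strand) and Capsl at chr15:9435778-9436077 (plus strand).
Dynlrb2: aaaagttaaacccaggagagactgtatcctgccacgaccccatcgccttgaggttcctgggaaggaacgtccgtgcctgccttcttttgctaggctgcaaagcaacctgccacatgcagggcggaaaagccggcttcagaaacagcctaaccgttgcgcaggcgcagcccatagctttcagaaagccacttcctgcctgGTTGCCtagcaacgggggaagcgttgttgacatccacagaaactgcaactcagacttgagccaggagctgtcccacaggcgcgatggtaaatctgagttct
Ccdc153: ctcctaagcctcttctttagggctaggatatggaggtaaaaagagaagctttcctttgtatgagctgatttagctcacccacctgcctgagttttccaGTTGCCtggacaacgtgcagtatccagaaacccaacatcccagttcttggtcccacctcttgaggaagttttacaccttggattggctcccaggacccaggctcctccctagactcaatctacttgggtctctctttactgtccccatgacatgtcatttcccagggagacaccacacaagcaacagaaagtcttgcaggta
Capsl: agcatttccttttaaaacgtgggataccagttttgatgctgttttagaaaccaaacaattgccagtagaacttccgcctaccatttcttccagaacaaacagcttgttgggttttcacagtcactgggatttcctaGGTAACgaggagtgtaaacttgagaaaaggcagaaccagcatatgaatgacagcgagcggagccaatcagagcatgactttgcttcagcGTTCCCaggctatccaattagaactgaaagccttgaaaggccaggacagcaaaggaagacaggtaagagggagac
Dynlrb2 and Ccdc153 each hold 1 match, both reading GTTGCC, and Capsl holds 2.

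Rises outnumbered falls among secretory airway and alveolar type 2 genes, as they did over all genes (1.7% rose and 0.398% fell). Of 25 club and secretory genes 5 rose and none fell, with a median of 0.45: Hp, Fmo2, Scgb3a2 (a secretoglobin, 0.46 ± 0.08, adjusted p = 0.0044), the aldehyde dehydrogenase Aldh1a7 (0.52 ± 0.11, adjusted p = 0.011) and Selenbp1 (0.70 ± 0.17, adjusted p = 0.0409). Their count was 8 without DKO replicate 1, 3 and 2 without DKO replicates 2 and 3, and 3, 3 and 4 without DHet replicates 1, 2 and 3. The club cell's main product Scgb1a1 differed by 0.16 ± 0.09 (adjusted p = 0.561). Of 26 type 2 genes 8 rose and none fell, with a median of 0.28. Sftpa1, surfactant protein A, stood at 12.71, 12.81 and 12.69 in DHet and at 13.09, 13.19 and 13.39 in DKO (0.49 ± 0.08, adjusted p = 0.00216). Sftpd, surfactant protein D, rose by 0.58 ± 0.12 (adjusted p = 0.0142), the fatty acid synthase Fasn by 0.48 ± 0.11 (adjusted p = 0.0194), the lipid transporter Abca3 by 0.33 ± 0.08 (adjusted p = 0.0296), the protease Ctsh by 0.65 ± 0.14 (adjusted p = 0.0188) and lysozyme Lyz2 by 0.47 ± 0.10 (adjusted p = 0.0123). The hydrophobic surfactant proteins did not pass: Sftpb differed by 0.24 ± 0.08 (adjusted p = 0.155) and Sftpc by -0.04 ± 0.06 (adjusted p = 0.933). The type 2 count was 10 without DKO replicate 1, 2 and 1 without DKO replicates 2 and 3, and 4, 4 and 2 without DHet replicates 1, 2 and 3. Of 22 type 1 genes, Igfbp2 alone was called, and Ager, the abundant type 1 receptor, differed by 0.12 ± 0.09 (adjusted p = 0.746).

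Mesothelium, the cell layer over the lung surface, gave 6 rises and no fall among 17 genes, with a median of 0.41. Msln, mesothelin, stood at 7.53, 7.48 and 7.22 in DHet and at 7.98, 8.31 and 8.59 in DKO (0.88 ± 0.16, adjusted p = 0.00412), and Gpm6a, a membrane glycoprotein, at 6.27, 6.04 and 5.80 against 6.73, 6.97 and 6.94 (0.84 ± 0.14, adjusted p = 0.00322). Lrrn4 (0.66 ± 0.14), Krt19 (0.64 ± 0.14) and Upk3b (0.54 ± 0.12) rose at adjusted p 0.0175, 0.0191 and 0.0253. The sixth was Slpi. Leaving out DKO replicate 1 kept the count at 6, leaving out DKO replicate 2 or 3 gave 4, and leaving out DHet replicates 1, 2 and 3 gave 3, 5 and 3. The labels do not state how the lungs were dissected.

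Some myeloid markers rose. Of 32 macrophage genes 7 rose, none fell and 31 lay above 0, with a median of 0.35. The list mean was between 7.77 and 7.80 in DHet, and 7.96, 8.20 and 8.36 in DKO. The genes were Fabp4, the complement component C1qc (0.55 ± 0.11, adjusted p = 0.0116), Lyz2, the lysosomal protease Ctsd (0.37 ± 0.08, adjusted p = 0.0191), Plet1 (0.58 ± 0.13, adjusted p = 0.0234), lipoprotein lipase Lpl (0.69 ± 0.17, adjusted p = 0.0377) and the scavenger receptor Marco (1.22 ± 0.30, adjusted p = 0.0411). Marco stood at 5.68, 5.86 and 5.99 in DHet and at 5.99, 7.27 and 7.92 in DKO, so that 1 DKO array sat level with the highest DHet array. The mannose receptor Mrc1 differed by 0.40 ± 0.11 (adjusted p = 0.0785). The macrophage count was 10 without DKO replicate 1, 2 and 1 without DKO replicates 2 and 3, and 3, 3 and 1 without DHet replicates 1, 2 and 3. Of 18 neutrophil genes 4 rose (Lcn2, Lrg1, S100a8 and Stfa2l1) and none fell, with a median of 0.52. Lcn2 and Lrg1 are also acute phase genes of epithelium and endothelium, and the granule gene Ngp stood at 7.53, 7.45 and 7.73 in DHet and 8.14, 8.33 and 8.76 in DKO without passing (0.84 ± 0.31, adjusted p = 0.263). The neutrophil count was 3 without DKO replicate 1 and 2 without any 1 of the other 5 arrays.

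The dendritic cell list held falls and no rise. Of 15 dendritic cell genes 5 fell and none rose, with a median of -0.22. The 4 besides Fscn1 were the class 2 histocompatibility genes H2-Aa (-0.56 ± 0.11, adjusted p = 0.0108), H2-Ab1 (-0.52 ± 0.10, adjusted p = 0.00911), H2-Eb1 (-0.43 ± 0.10, adjusted p = 0.0175) and H2-DMa (-0.40 ± 0.10, adjusted p = 0.0405), which load and show peptides to T cells and are also made by B cells and type 2 cells. H2-Aa stood at 10.61, 10.62 and 10.74 in DHet, at 10.26, 10.17 and 9.87 in DKO and at 10.48, 10.54 and 10.52 in WT. WT lay between the mutants and nearer to DHet. The count was 4, 2 and 0 without DKO replicates 1, 2 and 3, and 2, 3 and 2 without DHet replicates 1, 2 and 3. None of 14 T and NK cell genes or of 14 B and plasma cell genes was called, and 0 and 4 of them had an unadjusted p under 0.05 in limma. Of 31 interferon-responsive genes, the antiviral Rsad2 rose by 0.84 ± 0.19 (adjusted p = 0.0234), and it failed without DKO replicate 1 or 3 or DHet replicate 1 or 2. For Rsad2 WT stood at 8.82 to 8.86, nearer to DKO (8.90 to 9.20) than to DHet (8.08 to 8.52). Among vessels, 2 of 38 endothelial genes fell, Gpihbp1 (the capillary anchor of lipoprotein lipase, -0.48 ± 0.10, adjusted p = 0.0131) and Gpr182 (-0.54 ± 0.12, adjusted p = 0.0167), while Pecam1 and Cdh5 differed by 0.01 ± 0.10 and 0.07 ± 0.08. Gpihbp1 failed without DKO replicate 3 or DHet replicate 1 or 3, and Gpr182 without DKO replicate 2 or 3 or DHet replicate 1 or 2. Of 11 lymphatic genes, Lyve1 fell and Reln, which lies within 20 Mb of Fgfr3, rose by 0.52 ± 0.11 (adjusted p = 0.0123, failing without DKO replicate 3 or DHet replicate 2).

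Some heart muscle and erythroid markers rose. Of 39 heart muscle genes 5 rose, none fell and 34 lay above 0, with a median of 0.31. Cardiac muscle sheathes the pulmonary veins of the mouse, and the heart lies beside the lung at dissection. Tnnt2, cardiac troponin T, stood at 7.27, 7.40 and 7.35 in DHet, at 8.25, 8.36 and 8.38 in DKO and at 6.21, 6.87 and 6.88 in WT (0.99 ± 0.18, adjusted p = 0.00493). Tnni3 rose by 0.81 ± 0.15 (adjusted p = 0.0053), the sarcomere protein Myom1 by 0.78 ± 0.15 (adjusted p = 0.00573), Tnnc1 by 0.80 ± 0.19 (adjusted p = 0.03) and Myh6, the atrial and adult ventricular myosin heavy chain, by 0.98 ± 0.25 (adjusted p = 0.0437). The mean of the list lay between 6.27 and 6.50 in WT, 6.63 and 6.66 in DHet and 6.94 and 7.09 in DKO, 3 ranges that do not overlap. Myl7, an atrial light chain, differed by 0.76 ± 0.22 (adjusted p = 0.0911), and Nppa, the atrial hormone, lay below the filter at 3.77 to 3.94 in both mutants. The heart count was 4 without DKO replicate 1 and 3 without any 1 of the other 5 arrays. None of 9 skeletal muscle genes was called and none had an unadjusted p under 0.05. Of 22 erythroid genes 3 rose: Alas2 (0.99 ± 0.20, adjusted p = 0.0115), Slc4a1 (1.10 ± 0.24, adjusted p = 0.0167) and Slc25a37 (0.82 ± 0.14, adjusted p = 0.00346). Their count was 1 without DKO replicate 3 or DHet replicate 1. Slc4a1 stood at 5.90, 6.81 and 7.09 in DHet, at 7.75, 7.53 and 7.84 in DKO and at 7.08, 7.24 and 7.18 in WT. The part of attached heart tissue or residual blood in the other results was not tested.

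The acute phase list had the highest share of rises among the lists described here. Of 18 genes 7 rose, none fell and 17 lay above 0, with a median of 0.74. The list mean stood at 6.87, 6.86 and 6.94 in DHet, 7.25, 7.64 and 8.09 in DKO and 6.73, 6.83 and 6.70 in WT. The 3 DKO arrays lay further from each other on this list than the lowest of them lay from DHet. Besides Hp, Itih4, Lcn2 and Lrg1, complement factor Cfb rose by 0.74 ± 0.15 (adjusted p = 0.00968), the lipopolysaccharide binder Lbp by 0.48 ± 0.10 (adjusted p = 0.0163) and the metallothionein Mt1 by 0.74 ± 0.18 (adjusted p = 0.0409). A second Mt1 probe set differed in the opposite direction and was not called. The count was 9, 5 and 4 without DKO replicates 1, 2 and 3, and 6, 5 and 5 without DHet replicates 1, 2 and 3. Of 26 glucocorticoid-responsive genes 6 rose and none fell, with a median of 0.58, among them Sgk1, a kinase that controls sodium transport (0.55 ± 0.13, adjusted p = 0.0321), Zbtb16, Fmo2, Mt1, Lox and Lcn2. Without DKO replicate 1 it was 7, without DHet replicate 3 it was 2, and without any 1 of the other 4 arrays it was 1. Of 33 xenobiotic and antioxidant genes 4 rose and 1 fell, with a median of 0.33. At an unadjusted limma p under 0.05, 16 lay higher and 3 lower. The lowest difference in the list, -1.75, belonged to a gene that was not called. Gpx3, the secreted glutathione peroxidase, stood at 9.0, 8.92 and 8.95 in DHet and at 9.34, 10.43 and 10.74 in DKO (1.21 ± 0.25, adjusted p = 0.0111), and Cyp2s1, an epithelial cytochrome, at 7.78, 7.71 and 7.83 against 8.28, 8.56 and 8.64 (0.72 ± 0.10, adjusted p = 0.000266). The rises numbered 8 without DKO replicate 1, 1 without DKO replicate 2 or 3, and 2, 2 and 4 without DHet replicates 1, 2 and 3.

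**Figure D4:**
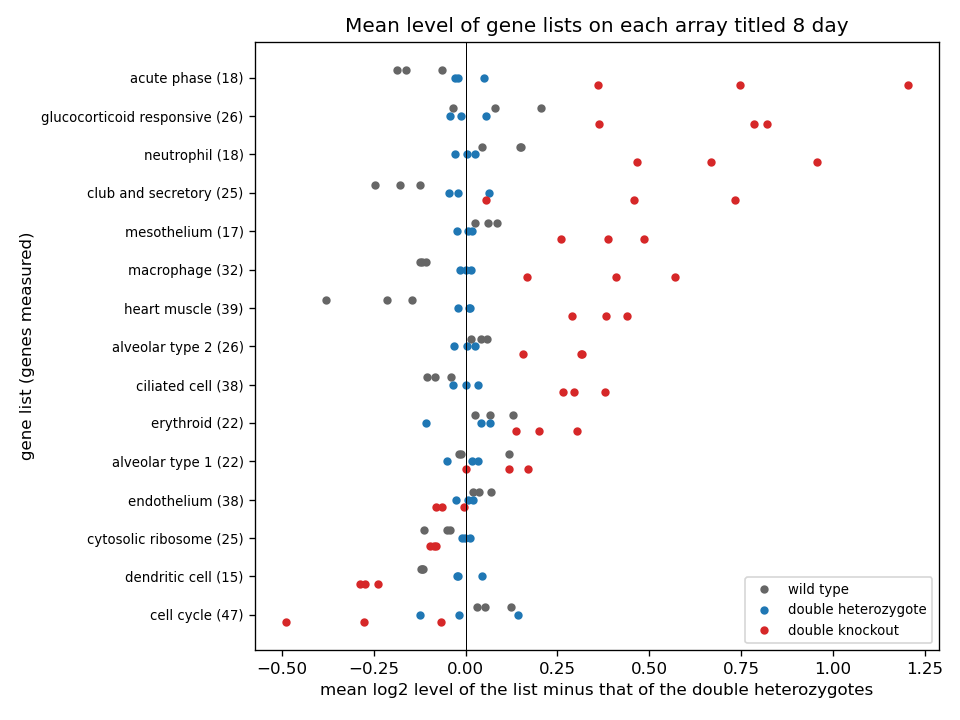
Mean log2 level of the genes of each list above the filter (number in brackets) on each array titled 8 day, minus the mean of the 3 DHet arrays. DKO points lie to the right of DHet and WT for the acute phase, neutrophil, macrophage, heart muscle and ciliated cell lists and to the left for the dendritic cell list; the lists share some members.

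None of 47 cell cycle genes passed, 14 had an unadjusted limma p under 0.05, each lower in DKO, and 44 of the 47 lay below 0, with a median of -0.30. Over all 13079 genes, 1595 had such a p in either direction and 5961 lay below 0. The list mean stood at 7.52, 7.68 and 7.42 in DHet and at 7.47, 7.05 and 7.26 in DKO, and the groups overlapped through DKO replicate 1. The mitotic kinase Aurkb, chosen after its value was seen, had the smallest p of the list at -0.56 ± 0.15 (adjusted p = 0.0708). Of 25 cytosolic ribosome genes none was called, 3 had an unadjusted p under 0.05, and the median was -0.10. Of these, 21 lay below 0, and 17 did not overlap between DKO and DHet, beside 19.4% of all genes. The list mean lay between 12.15 and 12.17 in DHet, 12.06 and 12.08 in DKO and 12.05 and 12.12 in WT. None of the 14 hedgehog, 17 circadian, 23 immediate early, 11 basal cell or 11 cartilage genes was called; 4, 1, 2, 2 and 0 of them had an unadjusted p under 0.05.

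Against WT, the DKO arrays of this set had 1067 probe sets called (3.95%), while DHet against WT had 14 (0.0518%). These comparisons share arrays with the main one and are given side by side. Of the 274 called genes, 272 had the same sign in DKO minus WT and 213 were called there. Among those not called in DKO against WT were Rsad2 (0.22, limma adjusted p = 0.626) and Slc4a1 (0.54, adjusted p = 0.247). Ankrd37 (0.72, adjusted p = 0.151), S100a8 (0.96, adjusted p = 0.106) and Alas2 (0.64, adjusted p = 0.0851) were not called there either. The exceptions in sign were Nnt and Cdr2. Nnt, a mitochondrial transhydrogenase named here after its values were seen, was the only 1 of the 274 called in DHet against WT. It stood at 7.98, 7.92 and 7.66 in DHet, at 8.66, 8.65 and 8.92 in DKO and at 9.07, 9.14 and 9.11 in WT, so DHet was the group that stood apart (DKO minus DHet 0.89 ± 0.15, adjusted p = 0.00263). Nnt is a gene that differs among C57BL6 substrains, and the part of strain background in these results was not tested. Within 20 Mb of Fgfr3, 6 of 202 genes were called (2.97%), within 20 Mb of Fgfr4 8 of 217 (3.69%), and elsewhere 259 of 12658 (2.05%).

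The same contrast was made in 2 other sets that share no array with this one. At 28 days 819 probe sets were called (3.03%), and in the set titled 1 day 7 (0.0259%). In the set titled 1 day the lowest correlation within a group was 0.9705 for DHet and 0.9754 for DKO. Here it was 0.9916 and 0.9906. DHet against WT had 1373 probe sets called in the set titled 1 day, and DKO against WT had 219. The part of these array differences in the comparison of sets was not tested. Of the 274 genes called here, 61 were called in the same direction at 28 days, where 478 genes were called in all, and 2 in the opposite one (Epb41l4b and Sntb1). Ntrk2, Spink5, Ankrd37, Fst, Lcn2, Sfrp2, Abcc9, Lyve1, Igfbp2, Sox11 and Cdkn2c were among the 61. In the set titled 1 day 3 of the 274 were called in the same direction (Cacna1d, Lrrc23 and Mxra8), of 4 genes called there. The sign was the same for 225 of 274 genes at 28 days and 180 of 274 in the set titled 1 day.

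A test of the difference itself (an interaction term in limma) passed for 169 probe sets against the 28-day set (0.625%) and 22 against the set titled 1 day (0.0814%), and for 27 and 14 of the 274 called genes. The 274 were called by their difference here, which is part of this test, so they are tilted toward passing. Hp rose by 1.35 here and differed by 0.29 at 28 days and 0.07 in the set titled 1 day, and both differences passed (adjusted p = 0.000695 and 9.46e-05). A2m fell by 1.19 here, against -0.11 and 0.02 (adjusted p = 0.0132 and 0.0253). The second of these passed only without DKO replicate 1 when an array was left out. Spink5 rose here and at 28 days (0.89) but stood at -0.26 in the set titled 1 day (adjusted p of the difference 9.46e-05). S100a8 was higher by 1.34 here and differed by -1.03 at 28 days (adjusted p of the difference 0.0134), and Gpr182 fell here by 0.54 and at 28 days by 1.66 (adjusted p of the difference 0.00173). Over all genes the smallest p against the 28-day set belonged to Chil4, Ifi209, Ankrd63 and Ccl5, none of them called here (differences of -0.59, 0.07, -0.03 and 0.05 against 2.67, -1.10, -2.19 and -1.64 at 28 days). Against the set titled 1 day, Slc6a6 (taurine transporter, 0.90 here and -0.19 there, adjusted p = 0.0119) and Cdk19 (1.21 and 0.02, adjusted p = 0.0192) joined Hp and Spink5. Slc6a6 failed without DKO replicate 2 or 3 or DHet replicate 2, and Cdk19 passed only without DKO replicate 1. Cdk19 rose more at 28 days (2.11), and its difference from that set also passed (-0.90, adjusted p = 0.0283). That difference failed with the replicate number as a block (adjusted p = 0.0835) and without any 1 of the DHet replicates. Of the 47 cell cycle genes, 14 differed from the 28-day set, each lower here than there, and 19 of the 47 rose at 28 days. The 22 probe sets against the set titled 1 day were 127 without DKO replicate 1 and between 2 and 4 without any 1 of the other 5 arrays. The 169 were between 80 and 104 without DKO replicate 2 or 3 or DHet replicate 1 or 2.

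**Figure D5:**
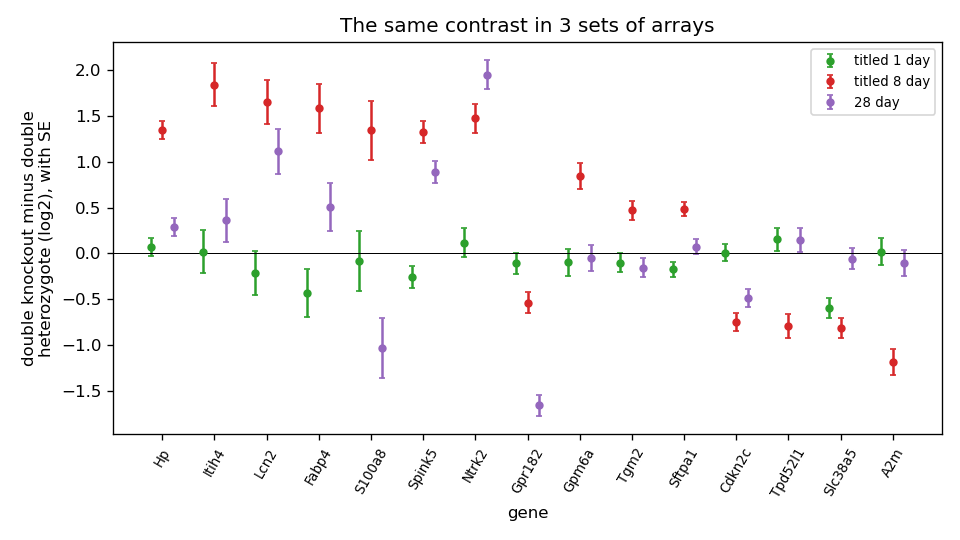
Difference DKO minus DHet (log2) with the standard error of the fit for 15 named genes whose difference in the set titled 8 day differs from 1 or both of the other sets; colours are sets. Hp (0.07), Itih4 (0.02) and A2m (0.02) are near 0 in the set titled 1 day, and S100a8 is 1.34 in the set titled 8 day and -1.03 at 28 days.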

How the data were processed

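Total RNA of whole lung, pooled from 3 animals per array, was labelled and hybridised to Affymetrix 3′ expression arrays, per the labels. The authors deposited 1 summarised log2 level per probe set and array. The summarisation, background correction and normalization are not given in the sources used here. Values ran from 2.68 to 14.77. The level distributions differed between the 3 age sets, so comparisons were made within a set and sets were compared only by their differences. Samples were grouped by title. Precision is limited by 3 arrays a group.

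Of 45101 probe sets, 64 controls were left out. The upper 60% by mean level over all 26 arrays (at least 5.38) were tested. Of the 45037, 34945 name 1 gene, 932 several and 9160 none; 34741 symbols were updated by Entrez identifier and 204 kept as given. A model with 1 mean for each of 9 groups was fitted with limma 3.58.1 in R 4.3.3 (lmFit, eBayes, 17 residual degrees of freedom), with Benjamini-Hochberg adjustment and a threshold of 0.05. The script was tested on simulated data. Alternatives were other filters, scalings, estimates of the spread, array weights, a replicate block and leaving out each array.

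Genes named are Fgfr3, Fgfr4, Eln and Igf1, the 14 largest rises and 14 largest falls among called genes without overlap, up to 6 called members of each list with the smallest adjusted p, the largest differences in the FGF, elastic fibre and IGF lists, those with the smallest p for a difference between sets, and the fixed markers. Other names were chosen after their values were seen. The members and lists were chosen with earlier results of these data known.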

Additional observations from a re-analysis of the deposited data

Results flagged for a closer look

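Of 99 named genes, the difference between DKO and DHet differed from that of the 28-day set for 9 and from that of the set titled 1 day for 10, with 4 past both tests (limma interaction, Benjamini-Hochberg over all probe sets tested). Most of the 99 were named for their difference in the set titled 8 day. That difference is part of each test, so these genes are tilted toward passing. Cdk19 and Slc6a6, named for a difference between sets, are not among the 99. Values are the difference in the set titled 8 day minus that in the other set, on the log2 scale.

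Hp, haptoglobin, exceeded the 28-day set by 1.06 (adjusted p = 0.000695) and the set titled 1 day by 1.28 (adjusted p = 9.46e-05). For Itih4 these values were 1.48 (adjusted p = 0.0381) and 1.83 (adjusted p = 0.0375). A2m lay lower by -1.08 (adjusted p = 0.0132) and -1.21 (adjusted p = 0.0253), and Tpd52l1 by -0.94 (adjusted p = 0.0134) and -0.95 (adjusted p = 0.0451). DKO against DHet passed for these 4 genes in neither other set. Their call in the set titled 8 day was a condition of their naming.

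Most of these differences did not hold in other fits. Against the set titled 1 day, those of Hp and Spink5 passed with the replicate number as a block and with any 1 of the 6 arrays left out. The other 8 failed with the block (adjusted p between 0.053 and 0.101) and, when an array was left out, passed only without DKO replicate 1. Against the 28-day set, Hp, Gpr182 and A2m passed in all these fits. S100a8 failed with the block (adjusted p = 0.066) and Tpd52l1 without DHet replicate 2 (adjusted p = 0.0531). Itih4, Gpm6a, Tgm2 and Slc38a5 failed with the block (adjusted p between 0.0735 and 0.128) and each passed in only 1 or 2 of the 6 fits with an array left out.

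Against the 28-day set only, S100a8 differed by 2.38 (adjusted p = 0.0134), from 1.34 against -1.03. Gpr182, which fell in both sets, differed by 1.12 (adjusted p = 0.00173). Gpm6a differed by 0.89 (adjusted p = 0.0436), Tgm2 by 0.63 (adjusted p = 0.0485) and Slc38a5 by -0.76 (adjusted p = 0.0265).

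Against the set titled 1 day only, Spink5 differed by 1.59 (adjusted p = 9.46e-05), Fabp4 by 2.02 (adjusted p = 0.0375), Lcn2 by 1.87 (adjusted p = 0.0375), Ntrk2 by 1.36 (adjusted p = 0.0204), Sftpa1 by 0.66 (adjusted p = 0.0253) and Cdkn2c by -0.76 (adjusted p = 0.0375).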

How the results depend on the processing

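The alternatives were read for 100 named genes and for Fgfr3 and Fgfr4, wherever the probe set passed the filter. None of these changed direction. The other named genes were not followed through the alternatives. The 436 called probe sets were 136 with the spread taken from the 6 arrays alone, 1476 with array weights and between 145 and 575 with 1 array left out; with the spread of the 9 arrays of this set they were 364, and under the other filters and scalings between 390 and 447. Of the 436, 230 were among the 364 and 104 among the 136. Of the 100 named genes, 33 lost their call with the spread of 9 arrays and 59 with that of 6, while of the 28 named by size 3 and 11 did. The 100 leave out Fgfr4 and include Eln and Igf1, which had no call to lose. The share of calls that were higher was 76.1%, and 66.2% with the spread of the 6 arrays. Against the 28-day set the 169 were 994 with array weights, 87 with the replicate block and between 80 and 228 with 1 array left out. Against the set titled 1 day the 22 were 34 with trend and robust eBayes, 126 with array weights, 2 with the replicate block and between 2 and 127 with 1 array left out. Fgfr3 (-0.47) passed with the spread of 9 arrays (adjusted p = 0.0168), of 6 arrays (adjusted p = 0.0301) and with array weights (-0.47, adjusted p = 0.0041). Fgfr4 (-0.70) did not pass with the spread of 6 arrays (adjusted p = 0.0793). The cause was not tested. Deviations of arrays with the same replicate number correlated at -0.037, -0.155 and 0.063, and those of other pairs at -0.165 to 0.247. With 3 arrays a group these values cannot decide whether the numbers pair the pools. With the number as a block, 319 probe sets were called. Probe sets under the level filter were not tested, which limits weak transcripts.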

Other observations

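Of the 274 called genes, 179 were in no list. Among those, 5 further genes known from motile cilia, chosen after their values were seen and not tested as a group, rose: Cfap54 by 0.74 ± 0.09 (SE; limma adjusted p = 0.000171), Deup1, which builds the centriole-producing deuterosome, by 0.69 ± 0.09 (adjusted p = 0.000312), Pifo by 0.60 ± 0.09 (adjusted p = 0.000786), the axonemal kinase Ak7 by 0.64 ± 0.11 (adjusted p = 0.00263) and the dynein heavy chain Dnah12 by 0.59 ± 0.11 (adjusted p = 0.00531). Cfap54 stood at 4.83, 4.81 and 4.65 in DHet and at 5.27, 5.62 and 5.63 in DKO. Deup1 stood at 5.11, 4.99 and 4.87 in DHet and at 5.63, 5.45 and 5.95 in DKO. Neither gene overlapped between the genotypes.

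The genes below were likewise picked one by one after their values were seen. Atp1b1, a subunit of the sodium pump, stood at 9.90, 9.75 and 9.77 in DHet and at 10.31, 10.82 and 10.93 in DKO (0.88 ± 0.14, adjusted p = 0.00216). Scnn1a, a subunit of the epithelial sodium channel, stood at 7.93, 7.97 and 7.95 in DHet and at 8.35, 8.86 and 8.75 in DKO (0.71 ± 0.13, adjusted p = 0.00508). The chloride channel protein Clic6 rose by 0.62 ± 0.08 (adjusted p = 0.000266). Beside these, the chemokine Cxcl12 rose by 0.84 ± 0.19 (adjusted p = 0.0191), while Ackr3, which takes up that chemokine, fell by 0.54 ± 0.12 (adjusted p = 0.0198). Sema3d, a secreted guidance protein, rose by 1.13 ± 0.15 (adjusted p = 0.000206), from 4.05, 4.17 and 4.06 in DHet to 4.99, 5.51 and 5.18 in DKO.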
